A study of Mus musculus with 70 samples.

Results

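The cerebral cortex was represented by 9 of the 70 libraries of the series, 3 each from the anterior cingulate area (ACA), the frontal pole (FRP) and the entorhinal area (ENT). They were chosen by their region labels and set against the 48 libraries of the 15 other adult regions, with 2 to 4 libraries each and every region weighted equally. All 57 libraries came from C57BL/6 mice at P56. The methods of the study describe the mice as C57BL/6NTac males, and no mouse carried a transgene or received a treatment. The other regions were the nucleus accumbens (ACB), the ventral tegmental area (VTA), 5 areas of the hypothalamus (PVH, DMH, VMH, LHA and ARH), the parabrachial nucleus (PB), 2 areas of the caudal brainstem (NTS, the nucleus of the solitary tract, and DVC, the dorsal-vagal complex), the cerebellar nuclei (CBN) and 4 areas of the cerebellar cortex (CENT2, CUL4-5, FL and UVU). Each library was made from punches of frozen sections pooled over several mice, apart from 1 ACB library made from a single mouse, so the spread between libraries is a spread between pools. The study used fewer adult mice than libraries, so libraries of different regions share mice, whereas the tests treat libraries, or regions, as independent. The study sampled these regions to map where genes involved in energy balance and obesity are expressed, and the comparison here asks what set the cortical punches apart. The remaining 13 libraries, of embryonic brain and mouse embryonic stem cells, were not compared.

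The cerebral cortex is a layered sheet. Its principal cells are excitatory neurons that release glutamate and arise from progenitors lining the embryonic ventricle, and its inhibitory interneurons release GABA and migrate in from the ventral forebrain. Excitatory cortical neurons are specified by a cascade of transcription factors, in which basic helix-loop-helix proteins of the NeuroD family act in young and mature neurons and bind a short DNA motif, the E-box. Punches hold neurons, glia and vessels together, so for every gene below, more cells of a type and more RNA per cell cannot be told apart.

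Levels are given as TPM, a transcript abundance scaled by transcript length and to the total of each library. Fold changes and tests come from the estimated counts by the quasi-likelihood test of edgeR, as the mean log2 level of the 3 cortical regions minus that of the 15 others. A gene was called when the adjusted p was under 0.05 and the change exceeded 1 on the log2 scale. Of 17351 genes tested, 1472 (8.48%) were called higher in the cortex and 1503 (8.66%) lower, with a median change of -0.03 over all of them. These shares are the background for the counts of each list below. In 248 genes (1.43%) every cortical library lay above every other adult library, and in 95 (0.548%) every cortical library lay below. A stricter test took each of the 18 regions as a single value (limma on the region mean of log2(TPM + 0.5)). It asked whether the cortex stood outside the variation between regions. It called 687 of 25199 genes higher (2.73%) and 612 lower (2.43%), of which 659 and 549 were also called by edgeR. Where a gene lost its call by region means, the adjusted p or the change by that test is given in the same paragraph.

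Total estimated counts were between 15173723 and 20647884 in the cortical libraries and between 13409041 and 19999209 in the others. Mitochondrial genes held 5.7 to 13.5% of TPM in the cortical libraries and 5.55 to 39.6% in the others. The highest share was in the first VTA library, and without it the highest was 14.2%. TPM is scaled to each library total, and the part of this share in the TPM ranges below was not tested. The third FRP library stood apart. Its summed TPM over 5 markers of olfactory bulb neurons was 382, against 53 and 64.1 in the other FRP libraries, 4.09 to 4.74 in ACA and 7.89 to 11.5 in ENT. Of these markers, Tbx21 was at 19.1 TPM in that library and at most 1.29 TPM in any other cortical library. Without it, 268 genes lay above and 123 below all other adult libraries. Its part in the results was not tested beyond the fits without it.

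The label was borne out by the marker of excitatory cortical neurons. Neurod6, which encodes a NeuroD factor of excitatory forebrain neurons, lies at GRCm38, chr6:55677822-55681263, minus strand. It had 46.7 to 147 TPM (median 107) in the cortex and 0.181 to 18.2 TPM (median 3.28) elsewhere. No other adult library reached the lowest cortical one, and the next region, ACB, had a mean of 12.4 TPM. The gene was higher in the cortex (log2 change 5.23, SE 0.151, adjusted p = 5.46e-31). Within the cortex its mean was 141 ± 5.82 TPM in ACA, 102 ± 19.7 in FRP and 66.4 ± 17.3 in ENT (SD, n = 3 each), and ENT did not differ from the other areas by the threshold (adjusted p = 0.0811, edgeR).

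The rest of the NeuroD family did not follow. Neurod2, a factor shared by excitatory neurons of cortex and cerebellar granule cells (GRCm38, chr11:98325415-98329648, minus strand), had 38.1 to 69.8 TPM (median 55.6) in the cortex and 0.136 to 140.1 TPM (median 6.62) elsewhere. The cortex lay above the hypothalamus and brainstem, but below the means of the 4 areas of the cerebellar cortex, with 126 ± 13.3 TPM in UVU (mean ± SD over libraries, as for all region means below). The edgeR call (log2 change 3.23, SE 0.151, adjusted p = 3.55e-23) ended by region means (adjusted p = 0.264, limma) and with the libraries in 2 groups (adjusted p = 0.424, edgeR). Neurod1 was at 5.47 to 16.6 TPM (median 7.88) in the cortex against a mean of 292 ± 17.1 TPM in CUL4-5, and Neurod4 did not exceed 0.344 TPM in the cortex. Neither was called. Neurod1 was called higher without the cerebellar regions (log2 change 2.36, adjusted p = 2.76e-16, edgeR) and lower with 2 groups (-2.78, adjusted p = 0.0462, edgeR). Thus 2 of 4 members were higher by edgeR and 1 by region means, with a median log2 change of 1.94 against -0.03 over all genes.

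**Figure D1:**
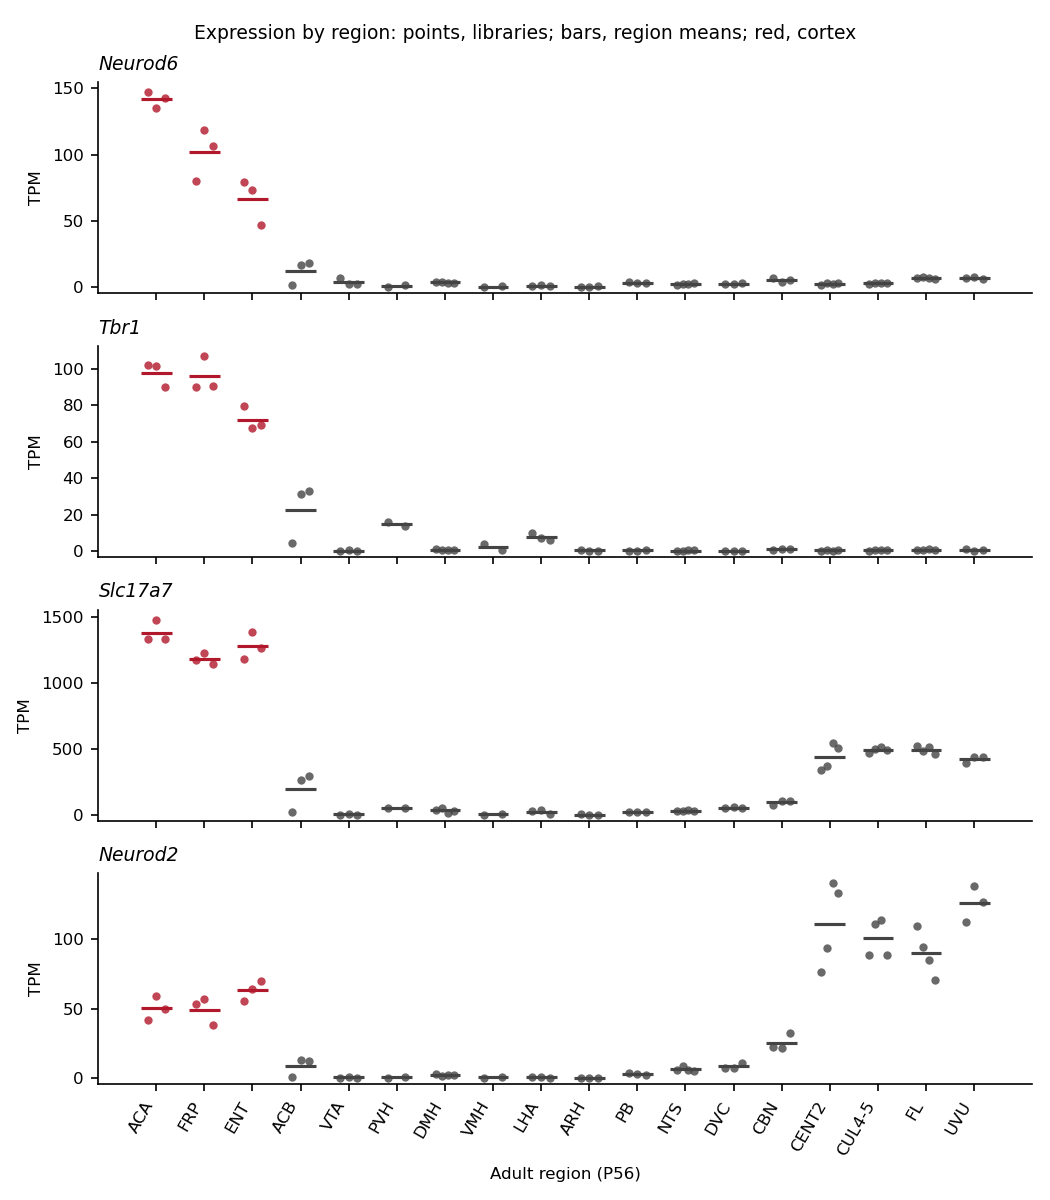
TPM (linear axes) of Neurod6, Tbr1, Slc17a7 and Neurod2 in the 57 adult libraries by region, with points for libraries, bars for region means and cortex in red. For Neurod6, Tbr1 and Slc17a7 all 9 cortical libraries lie above the rest, and for Neurod2 the 4 areas of the cerebellar cortex lie above the cortex.

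The promoters of the pair that were high in the cortex are shown because NeuroD factors bind E-boxes, the letters CANNTG, which read the same on both strands. Each is the 250 bases before the RefSeq start on GRCm38.p6, on the minus strand, 5′ to 3′, with E-box letters in capitals. They lie at chr6:55681264-55681513 for Neurod6 and at chr11:98329646-98329895 for Neurod2.
Neurod6: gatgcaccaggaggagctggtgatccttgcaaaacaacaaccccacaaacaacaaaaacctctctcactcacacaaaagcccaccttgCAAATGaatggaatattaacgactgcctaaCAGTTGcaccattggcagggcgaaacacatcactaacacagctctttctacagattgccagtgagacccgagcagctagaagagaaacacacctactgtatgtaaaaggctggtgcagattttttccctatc
Neurod2: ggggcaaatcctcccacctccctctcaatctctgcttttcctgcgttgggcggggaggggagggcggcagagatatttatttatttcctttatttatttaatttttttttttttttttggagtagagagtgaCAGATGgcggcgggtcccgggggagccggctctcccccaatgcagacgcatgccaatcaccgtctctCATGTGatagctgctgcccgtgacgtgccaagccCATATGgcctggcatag
Neurod6 held 2 E-boxes, CAAATG starting 162 bases and CAGTTG 132 bases before the start. Neurod2 held 3, CAGATG at 118, CATGTG at 51 and CATATG at 17 bases. Such letters are common: 66.2% of the 32851 windows of this length held at least 1. They were found in 3 of the 4 family members and in 9 of the 14 cortical transcription factor genes that had a window.

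Transcription factors that mark excitatory cortical neurons and the embryonic forebrain were the group with the highest median. Of 17 tested, 16 were higher and 0 lower, with a median log2 change of 4.27, or 3.94 when genes at 0 counts in a whole region were held to a floor of 3 counts over that region. Summed over the 17 genes, the level was 1017 to 1314 TPM in the cortical libraries and 82.4 to 614 in the others, without overlap. By region means 11 were higher and 0 lower.

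Fezf2, a determinant of subcortically projecting neurons (GRCm38, chr14:12342094-12348189, minus strand), had 28.6 to 55.2 TPM (median 44.4) in the cortex and 0 to 6.24 TPM (median 0.0611) elsewhere. The groups did not overlap, and because some regions were at 0 the change is a bound, at least 214-fold higher by the same floor (adjusted p = 2.14e-33, edgeR). Tbr1, a regulator of early-born corticothalamic neurons (GRCm38, chr2:61802930-61814114, plus strand), was at 67.5 to 107 TPM (median 90.2) against 0 to 32.9 TPM (median 0.442), a log2 change of 6.76 (SE 0.142, adjusted p = 4.17e-36). Emx1, a marker of the dorsal telencephalic lineage, was also above every other library, at 13.8 to 24.9 TPM (median 20.2) against at most 2.97 TPM (log2 change 6.91, SE 0.201, adjusted p = 6.50e-31). Lhx2 and Mef2c were also without overlap. Mef2c, an activity-regulated factor, was the most abundant of these, with 177 to 471 TPM (median 284) against 3.69 to 84.8 TPM (median 13.95), a log2 change of 4.64 (SE 0.0707, adjusted p = 3.88e-41).

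Other factors of this group were shared with ACB. Emx2 and Bcl11a overlapped ACB, where they had means of 15.7 ± 0.856 and 83.3 ± 9.53 TPM. Bcl11b, which marks subcerebral projection neurons of the cortex and also striatal neurons, was lower in the cortex than in ACB (log2 change -1.78, SE 0.214, adjusted p = 2.71e-09, edgeR).

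Some called factors were also expressed in other adult regions. Satb1 was higher (log2 change 1.57, SE 0.0657, adjusted p = 6.68e-25), with 25.04 to 71.2 TPM (median 54.3) against 9.01 to 39.5 TPM (median 18.6), and 6 other libraries overlapped. Nr2f1, an areal patterning gene, was higher (log2 change 1.32, SE 0.0633, adjusted p = 1.06e-22) but reached 98.9 ± 11.6 TPM in PVH, and the call ended by region means (adjusted p = 0.0733). The same held for Bhlhe22 (adjusted p = 0.198) and Zbtb18 (0.297), which had means of 32.1 ± 7.92 TPM in CENT2 and 412 ± 51.6 TPM in CUL4-5, and Zbtb18 also lost its call with 2 groups (adjusted p = 0.267, edgeR). Eomes, the factor of intermediate progenitors, was the 1 not called (log2 change -0.93, SE 0.726, adjusted p = 0.263). It was at 2.02, 3.58 and 21.9 TPM in the 3 FRP libraries and had a cortical median of 0.0682 TPM, and without the third FRP library it was called lower (log2 change -1.47, adjusted p = 0.00831, edgeR).

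**Figure D2:**
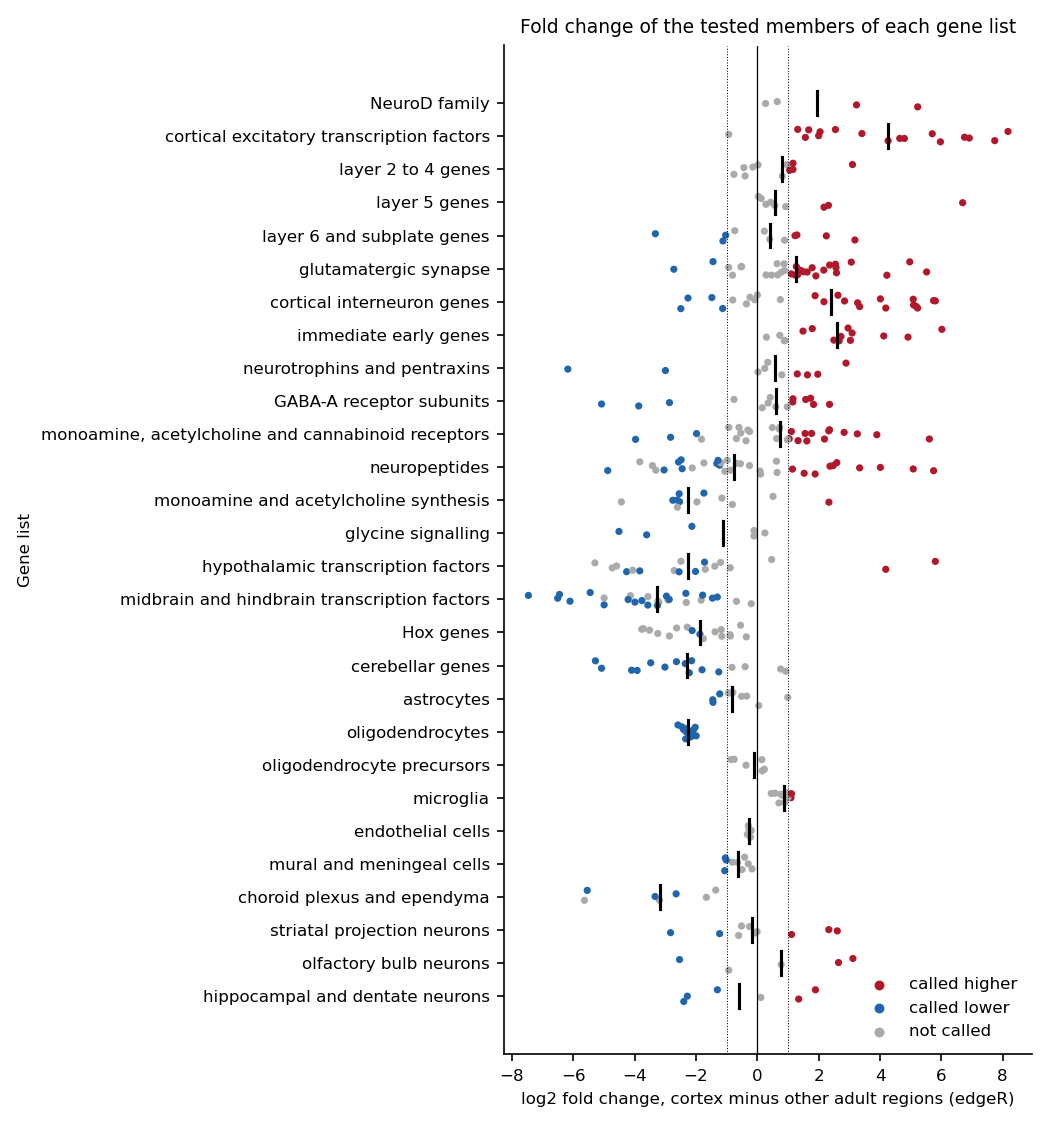
log2 fold change of cortex minus the other adult regions (edgeR, horizontal axis) for each tested gene of the lists, in red where called higher, blue where called lower and grey where not called, with black bars at list medians and dotted lines at the fold threshold. Cortical transcription factors lie furthest to the right, with a median of 4.27, and the 12 oligodendrocyte genes lie together near -2.25. Points of genes at 0 counts in a whole region depend on the prior count.

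Genes that mark single cortical layers were counted in the same way. Of 11 genes of layers 2 to 4, 4 were higher and 0 lower (median 0.82), of 9 genes of layer 5, 3 and 0 (median 0.57), and of 11 genes of layer 6 and the subplate, 4 and 3 (median 0.403). The shares higher were 36.4%, 33.3% and 36.4%, and those lower 0%, 0% and 27.3%, next to 8.48% and 8.66% of all genes. In none of the layer genes did the cortical libraries clear all others, but only 1.43% of all genes did so. By region means 0, 2 and 1 were higher.

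Crym, a thyroid hormone binding protein of deep layers, was shared with ACB. It had 117 to 262 TPM (median 146) in the cortex against a median of 0.9297 TPM elsewhere (log2 change 6.696, SE 0.129, adjusted p = 1.76e-37), yet the 3 ACB libraries had a mean of 458 ± 24.4 TPM and lay above the cortex. Lamp5, a membrane protein of upper layers, was at 97.5 to 316 TPM (median 227) but had a mean of 434 ± 28 TPM in NTS. Its call (log2 change 3.104, SE 0.196, adjusted p = 1.77e-18) ended by region means (adjusted p = 0.184) and with 2 groups (0.101). Cux2, an upper layer factor, was higher (log2 change 1.16, SE 0.0523, adjusted p = 8.42e-24), and 9 other libraries lay above the lowest cortical one. Its change was 0.99, just under the threshold, by limma on single libraries and by region means. Rorb, the layer 4 factor, was not called (log2 change 0.82, SE 0.0927, adjusted p = 1.51e-10). Npr3, a natriuretic peptide receptor, was higher (log2 change 2.32, SE 0.2498, adjusted p = 3.60e-11) at only 2.996 to 6.92 TPM (median 4.83). In layer 6, Sox5 was higher (log2 change 1.23, SE 0.05396, adjusted p = 3.48e-24) and Nxph4, a secreted neurexophilin, was lower (log2 change -3.33, SE 0.208, adjusted p = 1.27e-18), with 0.392 to 11.96 TPM (median 3.81) in the cortex and 1.92 to 106 TPM (median 32.02) elsewhere. Cplx3 and Moxd1 were called higher but not by region means (adjusted p = 0.0776 and 0.1002).

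Genes of the glutamatergic synapse formed the second group without overlap in summed level. The 31 genes added up to 7121 to 9732 TPM in the cortex and 950 to 5491 elsewhere. Of the 31, 18 were higher (58.1%) and 2 lower (6.45%, median 1.27), next to 8.48% and 8.66% of all genes. In 8 of them the cortex cleared all other libraries, as in 1.43% of all genes. By region means 12 were higher and 0 lower.

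The vesicular glutamate transporters split. Slc17a7, which encodes VGLUT1 (GRCm38, chr7:45163949-45176142, plus strand), was at 1144 to 1484 TPM (median 1268) in the cortex and 0.0225 to 548 TPM (median 49.99) elsewhere. The 4 areas of the cerebellar cortex came next, with 496 ± 29.7 TPM in FL, and no library overlapped (log2 change 4.97, SE 0.199, adjusted p = 1.25e-25). Slc17a6, which encodes VGLUT2 of subcortical neurons, went the other way, with 4.51 to 14.9 TPM (median 7.23) against 0.233 to 219.7 TPM (median 99.8), a log2 change of -2.72 (SE 0.341, adjusted p = 1.81e-09), but 11 other libraries lay under the highest cortical one and the call ended by region means (adjusted p = 0.175).

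Among the 18 that were higher were genes of the postsynaptic side. Nrgn, a calmodulin-binding protein of dendritic spines, had 1062 to 3029.6 TPM (median 1916) against 3.23 to 543 TPM (median 38.98), a log2 change of 5.52 (SE 0.204, adjusted p = 5.62e-27). Camk2a, the alpha subunit of the kinase of synaptic plasticity, had 1094 to 1734 TPM (median 1456) against 13.6 to 768 TPM (median 56.7), a log2 change of 4.23 (SE 0.0804, adjusted p = 1.10e-37). In both genes ACB was the next region and no library overlapped. Among receptor subunits without overlap were Grin2a (log2 change 2.17, SE 0.0677, adjusted p = 1.02e-29), Grin2b (log2 change 3.06, SE 0.111, adjusted p = 2.98e-27) and Gria3 (log2 change 1.79, SE 0.0579, adjusted p = 4.10e-29), with 28.4 to 64.5 TPM (median 49.02), 72.9 to 109 TPM (median 87.2) and 75.7 to 135 TPM (median 119) in the cortex. The scaffold Shank1 was higher by 1.63 on the log2 scale (adjusted p = 4.49e-29, edgeR), also without overlap. Gria2 (1.41) and Dlg4, the scaffold PSD-95 (1.27), were called but overlapped the ACB libraries. The presynaptic receptor Grm2 and the scaffold Homer1 were higher by 2.58 and 2.57, and 3 other libraries overlapped in each. Grm4, a receptor of cerebellar granule cells, was lower (log2 change -1.44, SE 0.112, adjusted p = 1.98e-15). It had a mean of 352 ± 24.6 TPM in UVU, its call ended by region means (adjusted p = 0.358), and without the cerebellar regions its change was -0.46.

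**Figure D3:**
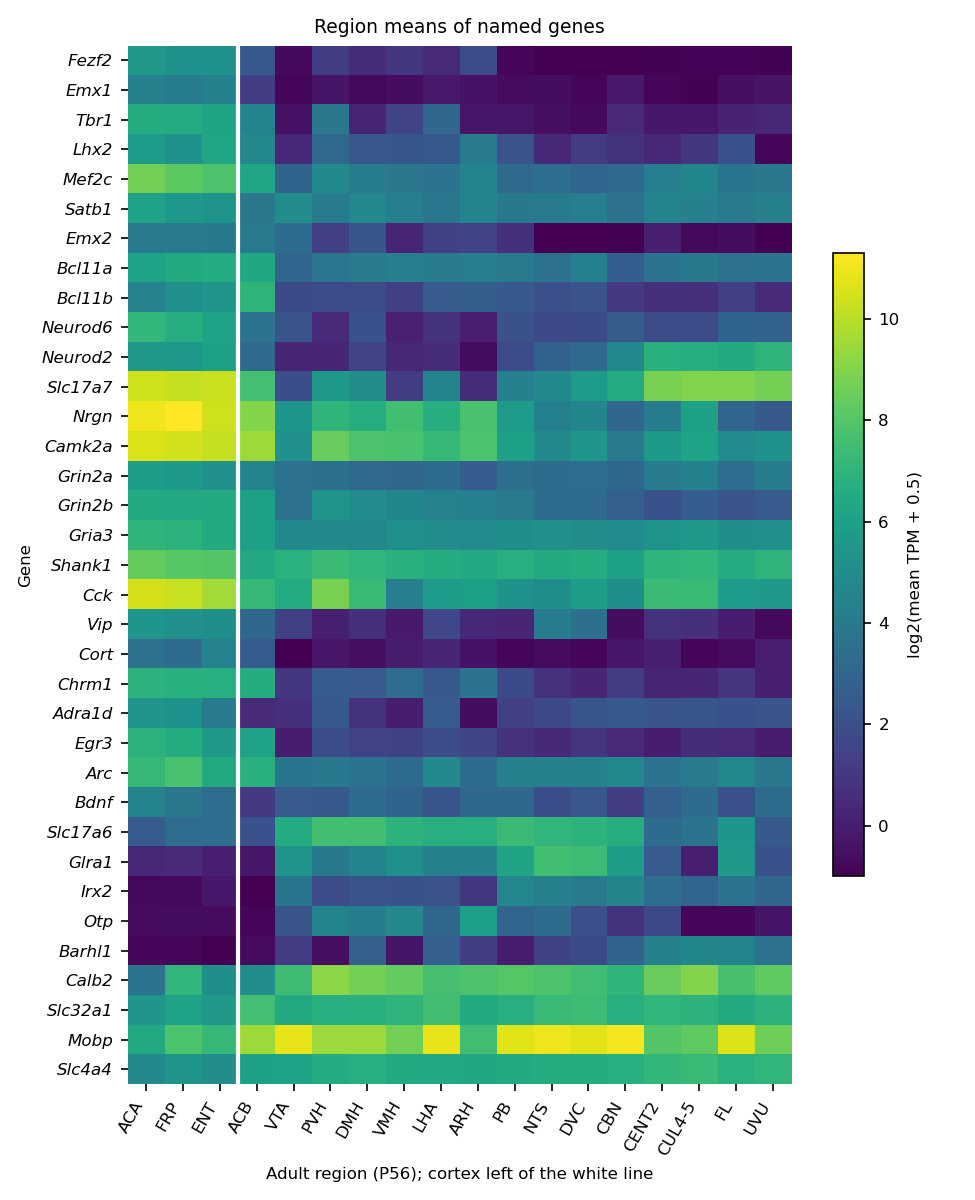
log2 of mean TPM plus 0.5 (colour scale) for named genes (rows) in the 18 adult regions (columns), with the cortex left of the white line. Rows from Fezf2 to Bdnf are bright in the cortex, and some are shared with ACB, as in Bcl11a and Chrm1. For Neurod2, Satb1 and Bdnf, libraries of other regions overlap or exceed the cortex. Rows from Slc17a6 down are darker in the cortex than in most other regions.

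Genes of cortical interneurons gave a mixed picture. Of 24 tested, 14 were higher (58.3%) and 4 lower (16.7%, median 2.402), next to 8.48% and 8.66% of all genes. By region means 5 were higher and 2 lower. Against ACB alone 6 of the 24 were higher and 7 lower, next to 5.71% and 5.95% of all genes. Without the first ACB library these were 3 and 6. Among those not called against ACB were Npy, Sst, Lhx6 and Dlx1 (adjusted p = 0.262, 0.662, 0.0752 and 0.435, edgeR). Of the 24, 1 cleared all other libraries, as did 1.43% of all genes. The 1 was Cck, cholecystokinin, which excitatory cortical neurons also make. It had 713 to 1844 TPM (median 1203) in the cortex against 10.1 to 446 TPM (median 60.7), with PVH next (log2 change 4.01, SE 0.159, adjusted p = 7.23e-26). Vip, the peptide of disinhibitory interneurons, was at 22.4 to 47.8 TPM (median 39.4) against 0 to 26.4 TPM (median 0.928), and a single NTS library overlapped (log2 change 5.08, SE 0.213, adjusted p = 6.47e-25). Cort, cortistatin, was at least 47.5-fold higher (adjusted p = 2.75e-22, edgeR), at 7.19 to 26.8 TPM (median 12). Npy was higher (log2 change 3.34, SE 0.101, adjusted p = 3.34e-30), although ARH, where it marks hunger neurons, had a mean of 515 ± 154 TPM. Htr3a, the receptor of another interneuron class, was higher (log2 change 2.63, SE 0.1898, adjusted p = 1.61e-16) at 3.204 to 8.36 TPM (median 6.11).

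Calls of several interneuron genes did not hold by region means. Sst, somatostatin, was at 454 to 1166 TPM (median 637) against 5.01 to 973 TPM (median 324), a log2 change of 1.89 (SE 0.172, adjusted p = 2.89e-13), with an adjusted p of 0.252 by region means and a change of 0.84 without the cerebellar regions. Lhx6, a factor of interneurons from the medial ganglionic eminence, was higher (log2 change 4.19, SE 0.134, adjusted p = 2.35e-29, region means 0.0516), and so was Dlx1 (log2 change 5.23, SE 0.164, adjusted p = 1.13e-29, region means 0.178, and 0.0699 with 2 groups).

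Gad1, the GABA-synthesising enzyme, was not called, with 196 to 734 TPM (median 225) against 57.4 to 675 TPM (median 303), a log2 change of -0.09 (SE 0.0915, adjusted p = 0.421), and the highest cortical value was that of the third FRP library. Slc32a1, the vesicular GABA transporter, was lower at 38.7 to 86.7 TPM (median 47.9) against 22.5 to 220.3 TPM (median 122), a log2 change of -1.13 (SE 0.0962, adjusted p = 3.55e-14), although without ACA the change was -0.97. Calb2, calretinin, was lower (log2 change -2.49, SE 0.164, adjusted p = 6.89e-18), and again the third FRP library was highest at 285 TPM while the ACA mean was 12.8 ± 0.808 TPM. Pvalb, parvalbumin, was lower (log2 change -1.48, SE 0.144, adjusted p = 2.07e-12), and its call ended by region means (adjusted p = 0.603). Purkinje cells also make it, CUL4-5 had 1175 ± 67 TPM, and without the cerebellar regions the change was -0.08 (adjusted p = 0.67, edgeR).

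Of 15 subunits of the GABA-A receptor, 6 were higher (40%) and 3 lower (20%, median 0.604), next to 8.48% and 8.66% of all genes. By region means 0 were higher and 0 lower. Gabra5, of extrasynaptic receptors, was highest by fold among those higher (log2 change 2.35, SE 0.141, adjusted p = 3.06e-19), at 59.5 to 105 TPM (median 72.02) against 0.325 to 78.99 TPM (median 23.7). Gabra3, another alpha subunit, was also higher (log2 change 1.58, SE 0.106, adjusted p = 1.43e-17). Gabre was lower (log2 change -3.87, SE 0.403, adjusted p = 1.38e-11) with a mean of 64.9 ± 7.22 TPM in ARH. The adjusted p by region means was 0.179 for Gabra5, 0.2104 for Gabra3 and 0.1703 for Gabre.

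Of 29 receptors for monoamines, acetylcholine and cannabinoids, 13 were higher (44.8%) and 3 lower (10.3%, median 0.73), and by region means 5 were higher. Over all genes 8.48% were higher and 8.66% lower, so the lower share was near that of all genes. Of the 29, 2 cleared all other libraries, as did 1.43% of all genes. The 2 were adrenergic. Adra1d was at 8.43 to 48.95 TPM (median 37.01) against 0.116 to 7.33 TPM (median 3.34), a log2 change of 3.897 (SE 0.126, adjusted p = 4.45e-29), and Adrb1 was at 14.4 to 25.8 TPM (median 19.3) against 1.38 to 12.02 TPM (median 4.03), a log2 change of 2.35 (SE 0.101, adjusted p = 1.29e-24). Chrm1, the M1 muscarinic receptor, had 94.7 to 126 TPM (median 112) in the cortex (log2 change 5.61, SE 0.118, adjusted p = 4.15e-36). ACB was close behind with 97.8 ± 1.67 TPM, and the cortex and ACB did not differ by the threshold (adjusted p = 0.193, edgeR). Htr2a, the serotonin receptor bound by hallucinogens, was higher (log2 change 2.83, SE 0.136, adjusted p = 1.06e-22) at 8.62 to 34.4 TPM (median 21.7). The dopamine receptors Drd1 and Drd2 had their highest means in ACB. Drd1 had 3.59 to 9.93 TPM (median 4.33) in the cortex and a mean of 139 ± 18.8 TPM in ACB. The cortex was higher than the mean of the 15 regions (log2 change 2.33, SE 0.125, adjusted p = 5.98e-21), but the call ended by region means (adjusted p = 0.457) and turned to -0.63 with 2 groups. Drd2 was lower (log2 change -2.83, SE 0.273, adjusted p = 1.55e-12), and its call also ended by region means (adjusted p = 0.166).

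Neuropeptide genes went both ways. Of 34 tested, 10 were higher (29.4%) and 8 lower (23.5%, median -0.78), next to 8.48% and 8.66% of all genes. By region means 4 were higher and 0 lower. Those higher included Cck, Vip, Cort, Npy and Sst, given above, and Vgf (log2 change 1.53, SE 0.139, adjusted p = 2.58e-13), the precursor of several secreted peptides. Its call ended by region means (adjusted p = 0.311), and without the cerebellar regions the change was 0.57. Grp, gastrin-releasing peptide, was at 7.69 to 32.5 TPM (median 15.7) in the cortex and had a mean of 20.2 ± 2.78 TPM in PB (log2 change 2.37, SE 0.216, adjusted p = 3.07e-13, region means 0.133). Those lower that are named here had their highest means in ACB or the hypothalamus. Penk, enkephalin, had a mean of 1914 ± 337 TPM in ACB against 24.1 to 165 TPM (median 71.4) in the cortex (log2 change -1.23, SE 0.126, adjusted p = 8.09e-12), and the change was -0.97 without ACB and -0.62 without ACA. Pmch, the melanin-concentrating hormone, had 4539 ± 655 TPM in LHA and a median of 1.396 TPM in the cortex (log2 change -2.49, SE 0.497, adjusted p = 2.33e-05). Without the hypothalamic regions its change was 0.78 (adjusted p = 0.247, edgeR). Gal, galanin, did not exceed 0.726 TPM in the cortex (log2 change -4.88, SE 0.542, adjusted p = 8.18e-11). Scg2, a granin, was lower (log2 change -1.28, SE 0.106, adjusted p = 1.51e-14), and without the hypothalamic regions the change was -0.81. By region means the adjusted p was 0.184 for Penk, 0.585 for Pmch, 0.1102 for Gal and 0.114 for Scg2.

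Immediate early genes, which neurons transcribe within minutes of activity, were higher in the cortex. Of 16, 11 were called higher and 0 lower, with a median of 2.58, and by region means 9 were higher. Egr3 had 39.3 to 122 TPM (median 101) in the cortex against 0.0946 to 80.9 TPM (median 1.24), a log2 change of 6.02 (SE 0.1002, adjusted p = 9.30e-40). Egr1 had 99.5 to 283 TPM (median 176) against 6.04 to 254 TPM (median 29.1), a log2 change of 2.73 (SE 0.119, adjusted p = 2.57e-24), and Arc, which encodes a protein of dendrites, had 50.5 to 296 TPM (median 113) against 5.8 to 196 TPM (median 17.5), a log2 change of 3.03 (SE 0.134, adjusted p = 4.26e-24). Npas4, a factor induced by calcium, was at 10.8 to 42.8 TPM (median 23.1), a log2 change of 3.09 (SE 0.129, adjusted p = 5.53e-25). In each of these 4 genes 3 other libraries reached the cortical range, and ACB was the next region for all 11. Against ACB alone 1 of the 16 was called higher and 0 lower, next to 5.71% and 5.95% of all genes, so that count was near the share over all genes. Fos was not called, with 18.4 to 104 TPM (median 52.8) against 2.504 to 123 TPM (median 27.8), a log2 change of 0.88 (SE 0.252, adjusted p = 0.00197). The level varied within regions, as in Arc, which was at 54.2, 296 and 88.3 TPM in the 3 ACA libraries.

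Among 10 neurotrophins, their receptors and pentraxins, 4 were higher and 2 lower (median 0.57), and 1 of each by region means. Bdnf, the brain-derived neurotrophic factor, had 6.93 to 24.5 TPM (median 13.2) in the cortex against 0.326 to 12.01 TPM (median 5.36), a log2 change of 1.63 (SE 0.117, adjusted p = 1.36e-16). A total of 18 other libraries lay above the lowest cortical one, an ENT library, and the ENT mean of 10.03 ± 2.96 TPM was under the ACA mean of 22.4 ± 2.395 TPM. Nrn1, neuritin, was above all other libraries at 245 to 541 TPM (median 352), a log2 change of 1.97 (SE 0.105, adjusted p = 4.21e-21), though its call ended by region means (adjusted p = 0.0835), as did that of Nptx2 (2.89 on the log2 scale, 0.0708). Ngfr, the low-affinity neurotrophin receptor, was lower (log2 change -2.996, SE 0.206, adjusted p = 3.08e-17) and did not exceed 1.01 TPM in the cortex.

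Ranked by fold among the 211 called genes that lay above every other library and had a mean of at least 1 TPM, the leading 15 included Fezf2, Emx1, Tbr1, Nrgn and 10 genes outside the lists above. Rtn4rl2, a Nogo receptor homologue, was at 67.1 to 124 TPM (median 86.9) and at most 12.9 TPM elsewhere, at least 87.6-fold higher (adjusted p = 2.84e-29, edgeR). Dkkl1, a secreted protein related to Dickkopf, was at 21.8 to 107 TPM (median 72.3) against 0 to 10.03 TPM (median 1.29), a log2 change of 5.78 (SE 0.161, adjusted p = 1.27e-31). Krt12, a keratin best known from the cornea, was at 15.6 to 25.5 TPM (median 21.2) and at most 4.33 TPM elsewhere (log2 change 6.65, SE 0.182, adjusted p = 7.26e-32). Ovol2, a zinc finger factor of epithelia, was at 1.55 to 16.9 TPM (median 10.8), had a median of 0 TPM elsewhere, and was at least 91.5-fold higher (adjusted p = 1.55e-19, edgeR). Gm11549 and Gucy2g had 5.98 to 36.2 TPM (median 19.7) and 2.49 to 6.89 TPM (median 5.14) in the cortex, and Cd6, a surface protein of T lymphocytes, had 0.575 to 7.04 TPM (median 4.01) against at most 0.385 TPM elsewhere (log2 change 5.59, SE 0.269, adjusted p = 1.06e-22). Slc26a4, an anion exchanger, was at 2.11 to 3.96 TPM (median 3.02). Dmrt2 and the olfactory receptor gene Olfr316 did not exceed 3.17 and 3.102 TPM. Of the 15, 6 were at 0 counts in a whole region elsewhere.

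Genes that were lower in the cortex than in every other library were led by Clic6, a chloride channel protein of choroid plexus, at 0 to 0.514 TPM (median 0.147) against 0.822 to 143 TPM (median 8.12), a log2 change of -5.55 (SE 0.7602, adjusted p = 1.62e-08). St18, a zinc finger factor, was at 0.522 to 2.92 TPM (median 0.985) against 4.32 to 68.7 TPM (median 9.66), a log2 change of -3.96 (SE 0.139, adjusted p = 1.02e-27). Patj, a polarity protein, was at 2.81 to 8.72 TPM (median 3.55) against 12.7 to 245 TPM (median 42.4), a log2 change of -3.69 (SE 0.107, adjusted p = 5.47e-31), with UVU at 225 ± 22.3 TPM. P2ry1, a receptor for ADP, was at 0.396 to 1.27 TPM (median 0.624) against 3.19 to 28.6 TPM (median 6.08), a log2 change of -3.096 (SE 0.102, adjusted p = 9.08e-29). The imprinted gene Peg10 had 4.67 to 7.15 TPM (median 5.0) in the cortex and at least 9.71 TPM elsewhere (log2 change -2.91, SE 0.189, adjusted p = 4.33e-18), and Zfp521, a zinc finger regulator, had 1.69 to 2.69 TPM (median 2.296) and at least 5.803 TPM (log2 change -2.72, SE 0.0557, adjusted p = 1.73e-36). Wnt3, Ankub1, Itih3 and Foxj1, the factor of motile cilia, made up the 10, with log2 changes of -3.19, -2.92, -2.86 and -2.65. All 10 were also called by region means, which use the same TPM values that chose them and so are not separate support.

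Of 27 transcription factors of the midbrain and hindbrain, 0 were higher and 17 lower (63%, median -3.26), where 8.66% of all genes were lower. Of 18 hypothalamic factors 2 were higher (11.1%) and 5 lower (27.8%, median -2.25). Of 17 tested Hox genes 0 were higher and 2 lower by edgeR (11.8%, median -1.87). By region means 4, 2 and 0 of these lists in turn were lower. DESeq2 called 24, 14 and 9 in either direction, against 3131 of all 17351 genes. At 0 counts in a whole region were 11, 12 and 14. For some genes at 0 counts in a region edgeR gave very large SEs and no call, so its counts are limited here. The Hox genes summed to at most 1.47 TPM in the cortex, with means of 360 TPM in DVC and 109 TPM in NTS. Irx5 was at 0 TPM in all ACA and FRP libraries and at most 0.132 TPM in ENT, against a median of 3.51 TPM elsewhere, at least 50.7-fold lower (adjusted p = 3.07e-14, edgeR). Irx2 did not exceed 0.662 TPM in the cortex and had a median of 8.22 TPM elsewhere (log2 change -6.51, SE 0.894, adjusted p = 1.69e-08), but it was at 0 in ACB apart from the first library, without which the adjusted p was 1. Otp, a factor of neuroendocrine neurons, was at most 0.242 TPM in the cortex and had a mean of 61.2 ± 27.6 TPM in ARH (log2 change -4.26, SE 0.753, adjusted p = 2.97e-06, region means 0.188). The hypothalamic factors that were higher include Lhx6, which is an interneuron factor as well. Gata2 was not called (log2 change -0.68, SE 0.122, adjusted p = 3.87e-06).

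Cerebellar genes were low by edgeR, with 0 of 16 higher and 12 lower (median -2.28), and 0 by region means. Barhl1, a granule cell factor, did not exceed 0.168 TPM in the cortex (log2 change -5.28, SE 0.337, adjusted p = 2.46e-18, region means 0.0923), and Cbln1, a synaptic organiser of granule cells, had 5.72 to 32.7 TPM (median 7.18) against 2.63 to 1159 TPM (median 115), a log2 change of -3.48 (SE 0.185, adjusted p = 3.74e-21, region means 0.05298).

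Genes of glycine and monoamine signalling, transmitters whose neurons lie mainly below the cortex, were lower or not called with 1 exception, Pnmt, the enzyme of adrenaline synthesis (log2 change 2.33 ± 0.65 SE, adjusted p = 0.00196, edgeR), at a mean of 0.437 TPM in the cortex against 0.382 TPM elsewhere, with overlap (region means 0.797). Of 6 glycine genes 0 were higher and 3 lower, and 1 by region means. Glra1, a glycine receptor of brainstem and spinal cord, was at 0.236 to 1.21 TPM (median 0.718) against 0.234 to 209.9 TPM (median 23.4), a log2 change of -4.51 (SE 0.402, adjusted p = 1.47e-13, region means 0.0636), and Slc6a5, the neuronal glycine transporter, at 0.0266 to 0.459 TPM (median 0.121), a log2 change of -3.61 (SE 0.282, adjusted p = 2.36e-15, region means 0.3002). Glrb, which also anchors at inhibitory synapses of the forebrain, was not called (log2 change -0.11, SE 0.0621, adjusted p = 0.117). Of 12 genes of monoamine and acetylcholine synthesis 1 was higher (8.33%) and 5 lower (41.7%, median -2.25), 0 by region means. Over all genes 8.48% were higher and 8.66% lower. Hdc, for histamine, was at 0.299 to 1.78 TPM (median 0.498) against a mean of 79.1 ± 27.1 TPM in ARH (log2 change -2.75, SE 0.278, adjusted p = 5.47e-12, region means 0.09102), and Slc5a7, the choline transporter, at 0.213 to 0.739 TPM (median 0.372), a log2 change of -2.61 (SE 0.576, adjusted p = 1.00e-04, region means 0.288).

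Among markers of the other cells in a punch, all 12 oligodendrocyte genes were lower, by edgeR and by region means, with a median of -2.25. Their summed level was 707 to 2324 TPM in the cortex and 1084 to 19612 elsewhere, and 40 of the 48 other libraries lay above the highest cortical one. Mobp, a myelin protein, had 82.4 to 362 TPM (median 134) against 114 to 2743 TPM (median 939), a log2 change of -2.46 (SE 0.167, adjusted p = 2.08e-17), and Ermn, a cytoskeletal protein of myelin, had 3.52 to 11.2 TPM (median 6.08) against 6.52 to 145 TPM (median 42.8), a log2 change of -2.59 (SE 0.1298, adjusted p = 4.73e-22). The part of myelin content in the other results was not tested. None of 6 genes of oligodendrocyte precursors was called (median -0.11), and Olig1 was -0.86 on the log2 scale.

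Of 10 astrocyte genes 0 were higher and 3 lower (median -0.83), 2 of them by region means. Slc4a4, a bicarbonate transporter, had 21.9 to 55.2 TPM (median 31.4) against 53.95 to 160.0 TPM (median 100.5), a log2 change of -1.44 (SE 0.0605, adjusted p = 6.39e-25), and Aqp4, the water channel of astrocyte endfeet, was lower (log2 change -1.45, SE 0.106, adjusted p = 2.00e-16), while Aldoc was not called (log2 change -0.86, SE 0.0669, adjusted p = 1.73e-15). Of 10 microglial genes 2 were higher and 0 lower, and 0 by region means. Aif1 was higher (log2 change 1.11, SE 0.124, adjusted p = 8.22e-11) and so was P2ry12 (log2 change 1.097, SE 0.0991, adjusted p = 2.16e-13), with adjusted p by region means of 0.0703 and 0.135, and without the cerebellar regions their changes were 0.72 and 0.70. None of 7 endothelial genes was called by edgeR or DESeq2, although 5 had an unadjusted p under 0.05, with Ly6c1 at -0.29, and of 9 genes of mural and meningeal cells 3 were lower, but 0 by region means and 0 with the collection batch as a block. Choroid plexus and ependymal genes summed to 3.13 to 10.8 TPM in the cortex and to at least 7.91 TPM elsewhere, with 47 of the 48 other libraries above the highest cortical one. Of these 7 genes 3 were lower, 2 of them by region means, and the median of -3.19 was beyond that of the oligodendrocyte genes. DESeq2 called 6 of the 7 in either direction, and 2 of the 7 were at 0 counts in a whole region. Of 10 striatal genes, which summed to 145 to 334 TPM in the cortex, 3 were higher (30%) and 2 lower (20%, median -0.16). By region means 0 were higher and 0 lower. Over all genes 8.48% were higher and 8.66% lower by edgeR. The 6 hippocampal genes summed to 32.5, 40.1 and 16.1 TPM in the ENT libraries and to 5.05 to 9.63 TPM in those of ACA and FRP. Of these genes 2 were higher (33.3%) and 3 lower (50%, median -0.59), and by region means 0 and 1. Among those lower, Prox1, of the dentate gyrus, was below every other library (log2 change -2.28, SE 0.106, adjusted p = 2.39e-23). Of the 5 olfactory bulb genes 2 were called higher and 1 lower, and 0 were higher by region means. Tbx21 was at least 6.42-fold higher (adjusted p = 2.80e-04, edgeR) and lost its call without FRP (adjusted p = 0.182) and by region means (adjusted p = 0.128). Cdhr1 was not called by region means (adjusted p = 0.0709), and it was at 119 TPM in the third FRP library and at 4.54 TPM as the cortical median.

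**Figure D4:**
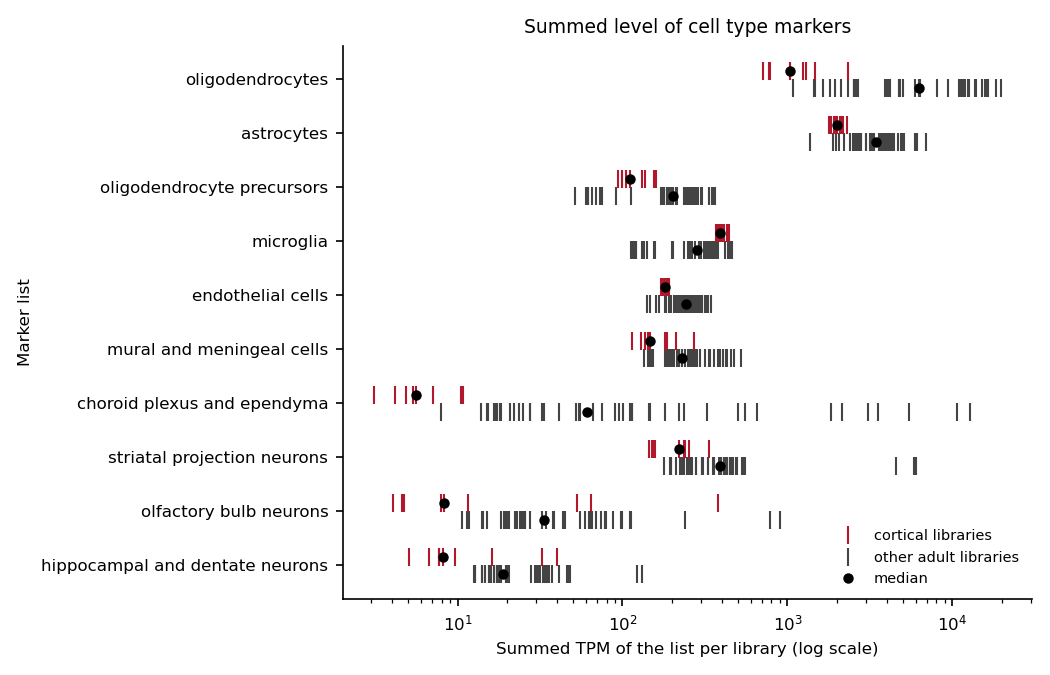
Summed TPM (log axis) of 10 marker lists in each library, with red ticks for the 9 cortical libraries, grey ticks for the 48 others and black dots for medians. Oligodendrocyte markers lie between 707 and 2324 TPM in the cortex, and 1 cortical library, the third of FRP, lies at 382 TPM in the olfactory bulb list.

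Obesity-associated genes as the study lists them did not lean either way. Of 186 tested, 16 were higher (8.6%) and 18 lower (9.68%), next to 8.48% and 8.66% of all genes, with a median of -0.03. By region means 2 were higher and 6 lower. Etv5, a factor of growth factor signalling, was at 52.1 to 112 TPM (median 81.3) against 12.1 to 56.1 TPM (median 20.8), a log2 change of 1.86 (SE 0.0463, adjusted p = 2.06e-33). Doc2a, a calcium sensor of synaptic vesicles, was at 65.1 to 127 TPM (median 86.7), a log2 change of 2.67 (SE 0.143, adjusted p = 5.53e-21, region means 0.152). Tnni3k, a kinase of heart muscle, and Sec16b, of endoplasmic reticulum exit sites, were called at levels that did not exceed 0.616 and 1.52 TPM, and by limma, on single libraries and on region means, the change was 0.70 for both Tnni3k and Sec16b. Among those lower, Calcr, the calcitonin receptor, was at most 0.182 TPM in the cortex and had a mean of 28.2 ± 1.96 TPM in ARH (log2 change -6.58, SE 0.722, adjusted p = 6.11e-11), Asb4 had 82.1 ± 8.48 TPM in ARH (log2 change -3.66, SE 0.297, adjusted p = 8.20e-15), and Skor1 and Tfap2b had their highest means in UVU (11.3 ± 1.99 and 29.7 ± 7.29 TPM). By region means the adjusted p was 0.114 for Calcr, 0.119 for Asb4, 0.127 for Skor1 and 0.223 for Tfap2b.

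The cortical areas were not alike. ENT, part of the older cortex beside the hippocampus, was compared with the mean of ACA and FRP, and 411 genes (2.37%) were higher in ENT and 351 (2.02%) lower. Of the 11 genes of layer 6 and the subplate, 6 were higher in ENT and 1 lower. Of the 6 hippocampal genes 2 were higher in ENT and 1 lower, and of the 10 striatal genes 4 and 0. The hippocampal list was also highest in sum in the ENT libraries, and its part in the ENT results was not tested. None of the 31 glutamatergic synapse genes was called by edgeR, although 11 had an unadjusted p under 0.05 and 8 an adjusted p under 0.05 with a change under the fold threshold, and limma called 1. Nr4a2, a nuclear receptor of the deepest layer and claustrum, was at 64.6, 108 and 39.2 TPM in the ENT libraries, 6.54, 13.7 and 2.57 in ACA and 10.8, 3.296 and 5.73 in FRP. Each ENT library lay above all 6 others (log2 change 4.02, SE 0.49, adjusted p = 2.65e-08, edgeR). Cplx3, a complexin of subplate neurons, was at 64.5, 59.2 and 28.1 TPM in ENT, 7.28, 6.93 and 8.44 in ACA and 8.03, 6.92 and 5.17 in FRP, again without overlap (log2 change 2.94, SE 0.344, adjusted p = 9.28e-09, edgeR). Nxph4 had a mean of 9.84 ± 1.84 TPM in ENT, 4.22 ± 2.82 in FRP and 0.485 ± 0.0952 in ACA (SD, n = 3 each), and was higher in ENT (log2 change 2.85, SE 0.3699, adjusted p = 1.04e-07, edgeR). Moxd1 was also higher (log2 change 1.53, SE 0.551, adjusted p = 0.0487, edgeR).

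Other genes were lower in ENT. Cd6 had means of 0.923 ± 0.552 TPM in ENT, 5.78 ± 1.097 in ACA and 4.01 ± 1.35 in FRP (log2 change -2.68, SE 0.536, adjusted p = 2.34e-04, edgeR), and its ENT libraries lay below all others. Ovol2, Gm11549 and Dkkl1 were lower, with log2 changes of -2.18, -1.86 and -1.27 (adjusted p = 0.00382, 7.31e-04 and 0.00629, edgeR). Doc2g, a marker of olfactory bulb mitral cells, was lower in ENT than the mean of ACA and FRP (log2 change -2.39, SE 0.404, adjusted p = 1.69e-05, edgeR). FRP had 19.4, 31.2 and 167 TPM. Against the other adult regions, the cortical change of Doc2g was 1.66 without ACA, 1.575 without ENT and -0.90 without FRP. ACA was thus no higher than ENT, and the difference lay between FRP and the other areas. Sec16b was lower (log2 change -1.903, SE 0.313, adjusted p = 1.04e-05, edgeR).

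Receptors and interneuron genes differed too. Of the 29 receptors, 7 were higher in ENT and 3 lower. Drd1 had means of 9.24 ± 0.864 TPM in ENT, 3.897 ± 0.389 in ACA and 3.87 ± 0.415 in FRP (log2 change 1.45, SE 0.217, adjusted p = 1.94e-06, edgeR), and Drd2 was higher by 1.802 on the log2 scale (adjusted p = 0.0108, edgeR). Adra1d and Htr2a were lower, with log2 changes of -1.25 and -1.13 (adjusted p = 0.00105 and 0.00653, edgeR). Sst was higher at 1063, 1166 and 1138 TPM in ENT against 637, 660.0 and 589.5 in ACA and 543, 485 and 454 in FRP (log2 change 1.08, SE 0.358, adjusted p = 0.0294, edgeR), and Pvalb was lower at 25.4 ± 6.64 TPM against 57.9 ± 3.58 and 49.9 ± 10.03 (log2 change -1.04, SE 0.269, adjusted p = 0.00449, edgeR). Bhlhe22 and Penk were higher by 1.42 and 1.32 on the log2 scale (adjusted p = 1.70e-06 and 9.68e-06, edgeR). With the olfactory bulb list high in the third FRP library, the comparison was rerun without single libraries, and the genes called ranged from 611 to 784 around the 762 found with all.

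**Figure D5:**
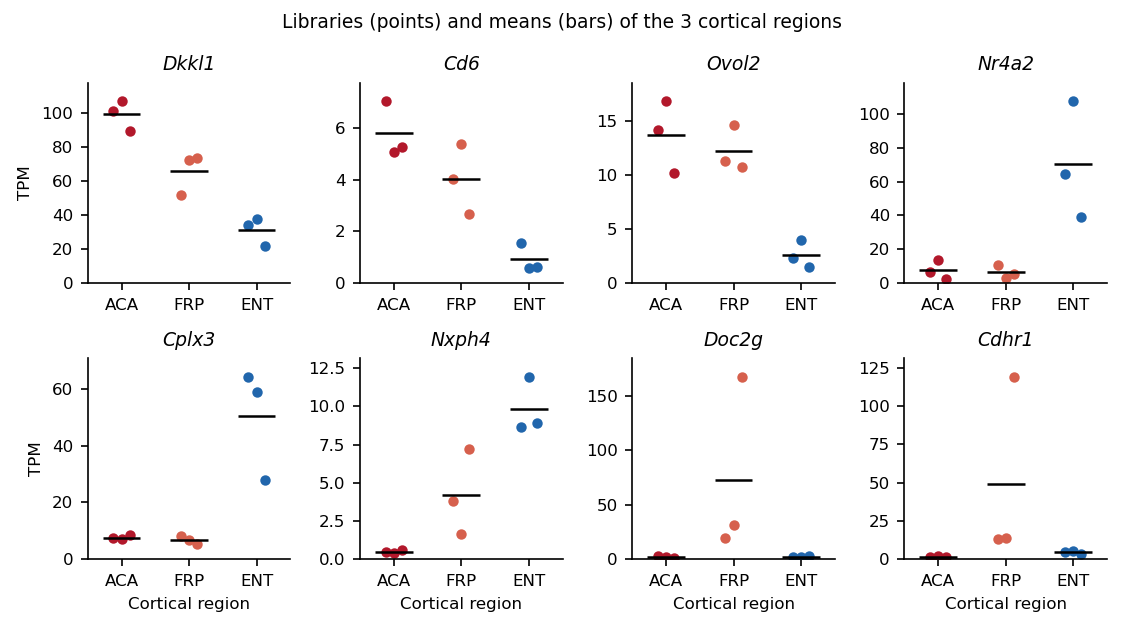
TPM (linear axes from 0) of 8 genes in the 3 libraries of ACA, FRP and ENT, with points for libraries and bars for means. ENT lies below the others for Dkkl1, Cd6 and Ovol2 and above them for Nr4a2, Cplx3 and Nxph4, and the third FRP library is at 167 TPM for Doc2g and 119 TPM for Cdhr1.

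The nucleus accumbens was the region most often next to the cortex. For 671 of the 1472 genes higher in the cortex (45.6%) it had the highest mean of the 15 other regions, against 12.8% of all genes tested. Its libraries were not alike for genes of excitatory cortical neurons. Neurod6 was at 2.06, 17 and 18.2 TPM in the 3 ACB libraries, Tbr1 at 4.32, 31.1 and 32.9, and Slc17a7 at 23.9, 263 and 297. The first ACB library was the low one in each. Its serial number falls in the collection batch in which the sample overview of the study places the single-mouse sample.

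Compared directly, with the cortical libraries used above, 991 genes (5.71%) were higher in the cortex than in ACB and 1033 (5.95%) lower. Of the 17 cortical transcription factors 11 were higher and 1 lower, all 12 oligodendrocyte genes were lower, and all 10 striatal genes were lower. Without the first ACB library 868 genes were higher and 930 lower, and these counts for the 3 lists were the same. The change of Neurod6 against ACB was then 2.57 (adjusted p = 3.7e-08, edgeR). Neurod6 was higher (log2 change 3.06, SE 0.367, adjusted p = 2.61e-09, edgeR), and Shank1 and Bdnf by 1.87 and 3.25 on the log2 scale (adjusted p = 6.88e-17 and 2.85e-12, edgeR). Drd2 was lower (log2 change -6.89, SE 0.332, adjusted p = 2.28e-21, edgeR), and so was Penk (log2 change -4.798, SE 0.189, adjusted p = 1.61e-24, edgeR). Grin2b and Homer1 did not pass the test against ACB (adjusted p = 0.116 and 0.2205, edgeR).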

How the data were processed

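RNA from punches of 18 adult brain regions (57 libraries) was sequenced as single reads, with CASAVA 1.8.2 and kallisto named in the processing notes of the submitters. The authors mapped reads to the GRCm38 cDNA with kallisto and deposited estimated counts per transcript, not normalized between libraries, and TPM per transcript and per gene. No deposited column was left unmapped to a sample. Transcripts were matched to genes with GENCODE mouse release M21. Counts were summed per gene and rounded, with a total per library of 13409041 to 20647884. At this depth replicates differed by more than counting noise.

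Genes that passed filterByExpr were tested with edgeR 4.0.16 (TMM, quasi-likelihood, Benjamini-Hochberg) in R 4.3.3, with a group for each region, and limma 3.58.1 was run on region means of log2(TPM + 0.5). The scripts were tested on simulated data. Alternatives used DESeq2 1.42.0, other scalings, filters and pseudocounts, 2 groups, a replicate block, a block for collection batch, and fits without single libraries. The fits without single libraries kept the gene set and dispersion trend of the full fit. Regions were left out by changing the contrast of the fit to all 57 libraries, not by a new fit. Fold bounds set a region at 0 to 3 counts over its libraries. Promoters came from RefSeq on GRCm38.p6. Figures were drawn with matplotlib 3.10.9.

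The libraries, gene lists and rules were chosen with earlier results of these data known. Named genes were the leading 15 higher and 10 lower by fold among called genes without overlap and with at least 1 TPM, the leading members of the obesity and marker lists, and members of the neuronal lists, of which the text gives those chosen after their values were seen. Some genes these rules select are not reported here. The main fit has no block. Collection batches 1 to 5 of the study's sample overview were assigned to libraries by the runs of serial numbers in the labels, which hold the same regions as each batch.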

Additional observations from a re-analysis of the deposited data

Results flagged for a closer look

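Among the 128 tested genes named above, 18 had 1 cortical library outlying from the other 8 by Dixon's test. Chance gives this in about 1 of 20 groups drawn from 1 normal population. The 9 libraries come from 3 areas that differ, so that rate is only a guide here. The third FRP library was outlying in 7 of them, at 21.9 TPM for Eomes, 734 for Gad1, 285 for Calb2, 55.2 for Slc4a4, 19.1 for Tbx21, 119 for Cdhr1 and 167 for Doc2g. The second ENT library was outlying at 262 TPM for Crym, 0.4499 for Gabre, 3.17 for Dmrt2, 1.78 for Hdc and 0.182 for Calcr. The third ENT library was outlying at 0.132 TPM for Irx5, 98.97 for Glrb and 1246 for Aldoc. Single flags were Vgf at 472 TPM in the second ACA library, Slc5a7 at 0.739 in the first ENT library and Mobp at 362 in the first FRP library.

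ENT differed from the mean of ACA and FRP in 411 genes that were higher and 351 that were lower by edgeR. Among the named genes, those higher in ENT were Neurod1 (log2 change 1.07), Bhlhe22 (1.42), Cplx3 (2.94), Nxph4 (2.85), Nr4a2 (4.02), Moxd1 (1.53), Sst (1.08), Drd1 (1.45), Drd2 (1.802), Penk (1.32), Irx5 (3.70, a fit against areas at 0 counts and so dependent on the prior count) and Cbln1 (1.47). Those lower were Pvalb (-1.04), Adra1d (-1.25), Htr2a (-1.13), Egr3 (-1.05), Ovol2 (-2.18), Gm11549 (-1.86), Dkkl1 (-1.27), Cd6 (-2.68), Gucy2g (-1), Wnt3 (-1.07), Tbx21 (-4.01), Doc2g (-2.39) and Sec16b (-1.902). Tbx21 and Doc2g were outlying in the third FRP library.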

How the results depend on the processing

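Of the 128 tested genes named above, 115 were called, and 68 of them kept the call under all 16 alternatives and without each single library. The test on region means ended 45 of these calls and gave 687 higher and 612 lower. It differs from the main test in tool, scale and genes tested as well as in taking 1 value per region, and limma on single libraries with the same scale and genes already gave 995 and 1223. Under the other 15 alternatives 94 kept the call, also without each single library. Counts over all genes were 1448 and 1683 with DESeq2, 1466 and 1508 with RLE size factors, 1905 and 1587 without a filter on low counts, 1327 and 1801 with limma on single libraries at a pseudocount of 0.1, and 1180 and 2010 with 2 groups, which moved the split towards lower genes. Without single libraries they ranged from 1405 to 1497 higher and from 1464 to 1578 lower, and between ENT and the other cortical areas from 611 to 784. Without the third FRP library, 268 genes lay above and 123 below all other libraries, a choice made after seeing the data.

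Directions turned in 7 genes. With 2 groups, Neurod1 was at -2.78 and Drd1 at -0.63 on the log2 scale. Without the hypothalamic regions, Neurod1 was at -0.79, Nr4a2 at -0.0733 and Pmch at 0.78. Without the cerebellar regions, Eomes was at 1.498 and Gad1 at 0.0737. Without ACA, Eomes was at 1.06 and Gad1 at 0.11. Without ENT, Neurod1 was at -0.0867, Nr4a2 at -0.94 and Gad1 at 0.076, and without FRP, Doc2g was at -0.90. The causes were not tested.

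Of the 13 named genes that were not called, 8 gained a call under an alternative: Neurod1, Eomes, Rorb, Nr4a2, Fos, Aldoc, Olig1 and Doc2g.

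A replicate block gave 1477 higher and 1511 lower genes. Correlations of deviations between libraries had a median of 0.012 over 436 pairs with the same number, 51 of them over 0.1, and of -0.005 over 1095 pairs with different numbers, 79 of them over 0.1, so not every pair passed 0.1. As a hint from the data, 30 of the 57 libraries correlated best with their own number and 31 with their own collection batch. With the collection batch as a block, a choice made after seeing the data, 1481 genes were higher and 1476 lower, 777 differed between ENT and the other cortical areas, and all 115 named calls were kept. The depth limits genes near 0 counts, where fold changes are bounds, and the pools of mice limit what a p-value covers.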
